A study of Mus musculus with 66 samples.

Results

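Testes of day 8 and day 10 after birth were compared with testes of day 14, across the interval in which the first zygotene and early pachytene spermatocytes appear. The samples were chosen by the age in their titles, and take up 18 of the 66 arrays of a series that follows the mouse testis from birth to day 56. Each age was measured as 2 numbered samples on each of 3 oligonucleotide array types, named A, B and C after their titles. Every type thus holds 4 arrays of days 8 and 10 and 2 arrays of day 14, among 22 arrays of 11 ages. All groups, the earlier and later ages used for reference included, were total RNA of whole testes of BL/6-129 mice, extracted with TRIzol. The labels give no mutant allele or treatment, and age is the only difference between groups that they name. They do not say whether the 2 samples of a day came from separate animals or pools, and p-values therefore measure only the spread between these samples, which may be technical.

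Spermatogenesis starts in a single wave after birth, so that each age adds the next germ cell stage to the testis. Spermatogonia commit to meiosis in response to retinoic acid, and the cells then pass through leptotene, zygotene and pachytene. In these stages programmed DNA breaks are made by SPO11, the recombinase DMC1 helps to pair homologous chromosomes, the synaptonemal complex ties them together, and some breaks become crossovers. At pachytene the X and Y chromosomes are silenced in the sex body, and a large set of genes for later sperm function is switched on, many of them under the transcription factor A-MYB (Mybl1).

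The values are signal intensities scaled to a common mean, and changes are differences of log2(signal + 16), which understate the change of genes with low signals. A gene is "called" at a Benjamini-Hochberg adjusted p under 0.05 in limma and a difference of 2-fold or more on this shifted scale. Between 50.5% and 63.1% of the probe sets of the 18 arrays reached a signal of 50, and the correlation between the samples of a day lay between 0.881 and 0.958. Days 3 and 6 served as an earlier reference, and their arrays also entered the estimate of the spread behind every p-value. Both days held single arrays with transcripts of late germ cells. Over the 34 genes of type C with a mean signal under 40 at day 0 and over 3000 at day 56, the summed signal was 550 and 2692 in samples 1 and 2 of day 3 and 2251 and 843 in those of day 6. It lay between 864 and 1112 at days 8 and 10. On type A the 12 such genes summed to 632 and 197 at day 3 and to 191 and 581 at day 6, against 184 to 232 at days 8 and 10. On type B the 12 such genes summed to 172 and 386 at day 3 and to 386 and 265 at day 6, against 127 to 208 at days 8 and 10. The high arrays carried opposite numbers on type A and on types B and C, so a sample number need not mark the same RNA on all 3 types. Each type was fitted on its own, and a gene's values and leave-one-out results come from 1 type, while leave-one-out counts over all genes take out the same number on all 3 types. Values below are given as sample 1 and then sample 2 of a day.

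Day 14 was marked by more rises than falls. Of 13472 genes tested, 175 (1.3%) were called higher and 39 (0.289%) lower at day 14 than at days 8 and 10, with a median change over all genes of -0.02. The median change was 1.71 over the genes called higher and -1.45 over those called lower. Of the genes called higher, 65 rose at least 4-fold and 16 at least 8-fold, and 76 had a mean signal under 50 at days 8 and 10. Both day 14 samples lay above all 4 earlier samples in 175 of the 175 genes called higher and below them in 39 of the 39 called lower, against 12.2% and 13.5% of all genes tested. The genes were called on these same samples, so the separation largely restates the calls and is no further support. Taking day 8 alone as the earlier age, 153 genes (1.14%) were called higher and 39 (0.289%) lower. Against day 10 alone, 89 (0.661%) were called higher and 6 (0.0445%) lower. Between days 8 and 10 limma called 0 genes (0%). An unadjusted p under 0.05 was held by 376 genes (2.79%), less than the share of 0.05 that would do so without any change. The counts rest on both day 14 samples, since 86 genes were called higher and 14 lower without day 14 sample 1, and 72 and 15 without sample 2. The falls also became fewer without day 8 sample 1 (24 genes) and without day 10 sample 1 (20 genes). Across the leave-one-out fits, 62 of the genes called higher and 5 of those called lower were called in each of the 6.

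**Figure D1:**
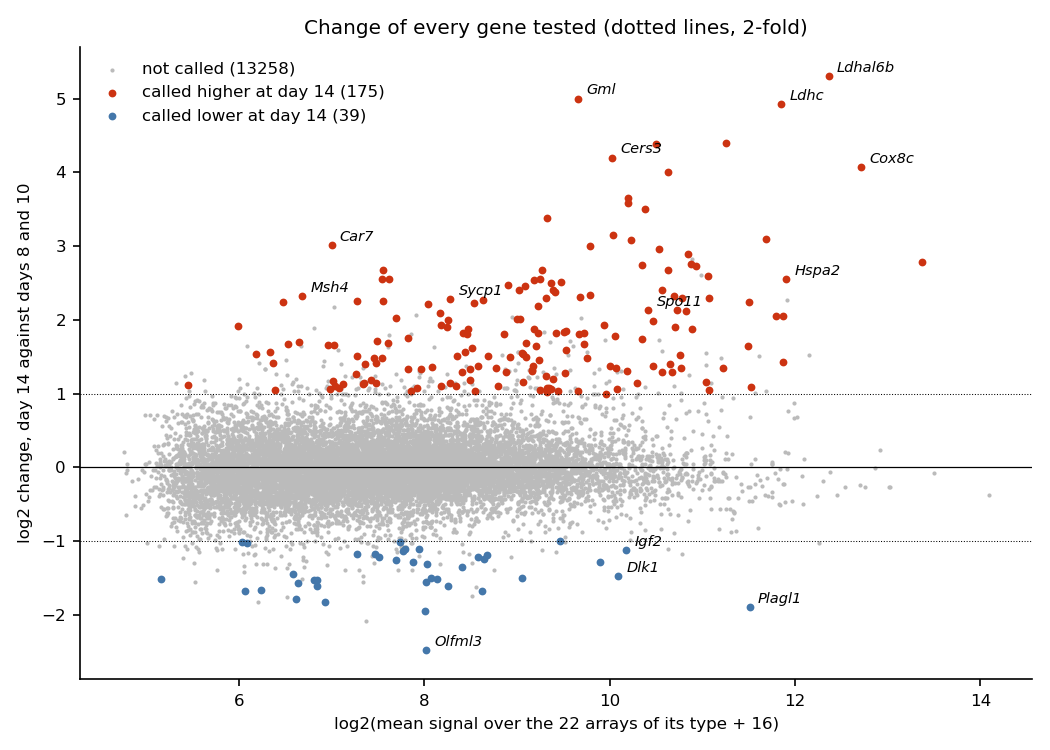
Each point is 1 of the 13472 genes tested, with its mean log2 signal over the 22 arrays of its type on the x axis and its log2 change at day 14 against days 8 and 10 on the y axis, and dotted lines at 2-fold. The 175 genes called higher (red) reach further from 0 than the 39 called lower (blue), with Ldhal6b at 5.31 the highest and Olfml3 at -2.48 the lowest.

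Of 7 measured genes of the meiotic entry list, 2 (28.6%) were called higher at day 14 and 0 lower (median change 0.33), against 1.3% of all genes called higher. The 2 were Meioc and Tex101, a surface protein rather than a regulator of entry. Stra8, Ythdc2, Dazl (0.33), Rec8 (-0.11) and Rxra (-0.45) were not called. Stra8, the retinoic acid target that commits germ cells to meiosis, gave signals of 319 and 267 at day 8, 433 and 346 at day 10, and 352 and 295 at day 14. Its day 14 samples lay within the earlier range, and the change was -0.06 ± 0.24 (SE, adjusted p = 0.98). Meioc, which keeps cells in the meiotic programme, gave 107 and 119 at day 8, 317 and 256 at day 10, and 704 and 651 at day 14. It rose by 1.82 ± 0.43 (adjusted p = 0.0363) with no overlap, and was not called in any of the 6 leave-one-out fits (adjusted p from 0.077 to 0.317) or against day 10 alone (0.634). Tex101, a surface protein of germ cells, stood at 608 and 681 at day 8, at 906 and 902 at day 10 and at 2815 and 2988 at day 14. It rose by 1.90 ± 0.24 (adjusted p = 0.000107), and it was called without any one of the samples. Ythdc2, an RNA helicase that acts with MEIOC, changed by 1.03 ± 0.33 and was not called (adjusted p = 0.183).

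Of the 6 measured genes of the synaptonemal complex, 1 (16.7%) was called higher and 0 lower (median 0.58), against 1.3% of all genes called higher. Changes were above 0 in 6 of the 6, against 6321 of all 13472 genes tested. Sycp1, the transverse filament that closes the zipper between homologues at zygotene, gave signals of 159 and 138 at day 8, 266 and 96.3 at day 10, and 833 and 797 at day 14. The day 14 samples lay far above all earlier ones, and Sycp1 rose by 2.28 ± 0.47 (adjusted p = 0.0128). The call was lost on leaving out sample 2 of day 10 (adjusted p = 0.0547) or sample 1 (0.152) or 2 (0.16) of day 14, and against day 10 alone (0.0744). Tex12, of the central element, had day 14 signals of 1504 and 1775 against 748 to 999 before, and Syce1, of the same element, 1414 and 1647 against 716 to 1069. Neither group overlapped, but the changes of 0.86 ± 0.23 (adjusted p = 0.0779) and 0.78 ± 0.20 (adjusted p = 0.0595) missed the threshold. Sycp3, of the lateral element, was read by a dim probe set (13.6 to 46 at all 3 ages) and changed by 0.24.

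Among 11 measured genes of meiotic cohesin and the axis, 0 were called in either direction, and the median was 0.16. Over all genes, 1.3% were called higher and 0.289% lower. Rec8, the meiotic kleisin, was bright at every age, with 884 and 796 at day 8, 1115 and 883 at day 10 and 944 and 758 at day 14 (change -0.11 ± 0.18). Stag3, a meiotic cohesin subunit, gave 2411 and 2754, 3374 and 3395, and 3846 and 5777. Its day 14 samples lay above the earlier ones, and the change of 0.67 ± 0.31 was not called (adjusted p = 0.499). Terb1, which anchors telomeres to the nuclear envelope in zygotene, changed by 1.17 ± 0.49 with no overlap and was not called (adjusted p = 0.409).

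Of the 3 measured genes of double strand break formation, 1 (33.3%) was called higher, against 1.3% of all genes. Spo11, the enzyme that makes the breaks, gave signals of 331 and 405 at day 8, 266 and 600 at day 10, and 1531 and 1971 at day 14. The day 14 samples lay far above the earlier ones, and Spo11 rose by 2.13 ± 0.26 (adjusted p = 9.57e-05), with the call kept in all 6 leave-one-out fits. Hells, a chromatin remodeller that acts where breaks form, changed by 0.13 ± 0.40, and its groups overlapped.

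Of 12 measured genes of strand exchange, 4 (33.3%) were called higher and 0 lower (median 0.47), against 1.3% of all genes called higher. Against day 10 alone 1 of the 12 was called higher, beside 0.661% of all genes. There adjusted p was 0.0688 for Dmc1, 0.0949 for Mcmdc2 and 0.444 for Hsf2bp. Dmc1, the meiotic recombinase, gave 50 and 27.5 at day 8, 63.1 and 51.5 at day 10, and 159 and 179 at day 14. The groups did not overlap, and Dmc1 rose by 1.56 ± 0.28 (adjusted p = 0.00416). Psmc3ip (HOP2), which stimulates DMC1, gave 43.6 and 38.4, 62.4 and 34.0, and 158 and 113 at the same ages, a rise of 1.33 ± 0.22 (adjusted p = 0.00214). Mcmdc2, needed for break repair on the homologue, had signals of 11.6 to 32 at days 8 and 10 and of 99.3 and 208 at day 14 (2.24 ± 0.51, adjusted p = 0.0275). Hsf2bp, which brings BRCA2 to meiotic breaks, was already bright at day 8, at 724 and 764. It stood at 1213 and 1094 at day 10 and at 1923 and 2275 at day 14, a rise of 1.16 ± 0.27 (adjusted p = 0.0312). Fignl1, an ATPase of recombination, passed the adjusted p but not the 2-fold limit (0.92 ± 0.15, adjusted p = 0.00159). The calls of Dmc1 were lost without day 14 sample 1 (adjusted p = 0.0528) or sample 2 (0.112), and that of Psmc3ip without day 14 sample 1 (0.0998). Hsf2bp was not called in any of the 6 leave-one-out fits (0.0755 to 0.395), and Mcmdc2 was called in the fit without day 8 sample 2 only (0.0721 to 0.493 in the others).

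Of 12 measured genes of crossover formation, 2 (16.7%) were called higher and 0 lower (median 0.27), against 1.3% of all genes called higher. The 2 encode the partners of the MutSγ complex, which stabilises recombination intermediates. Msh4 gave 23.8 and 25.8 at day 8, 24.5 and 25.3 at day 10, and 171 and 206 at day 14. The 4 earlier samples were nearly equal, and Msh4 rose by 2.32 ± 0.31 (adjusted p = 0.000335) with the call kept without each sample in turn. Msh5 gave 9.0 and 13.3, 32 and 35.3, and 59.7 and 67.6, so that its signal was higher at day 10 than at day 8 as well. It rose by 1.12 ± 0.21 (adjusted p = 0.00843), and lost its call on leaving out sample 1 (adjusted p = 0.0801) or 2 (0.184) of day 14, and against day 10 alone (0.442). The other measured members were not called, whether they act early or late. Their changes ran from -0.40 for Exo1 to 0.63 for Ccnb1ip1, a crossover regulator (adjusted p = 0.384). Mlh3, which resolves crossovers, changed by 0.42 (adjusted p = 0.663), Blm by 0.29 and Shoc1 by 0.11.

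**Figure D2:**
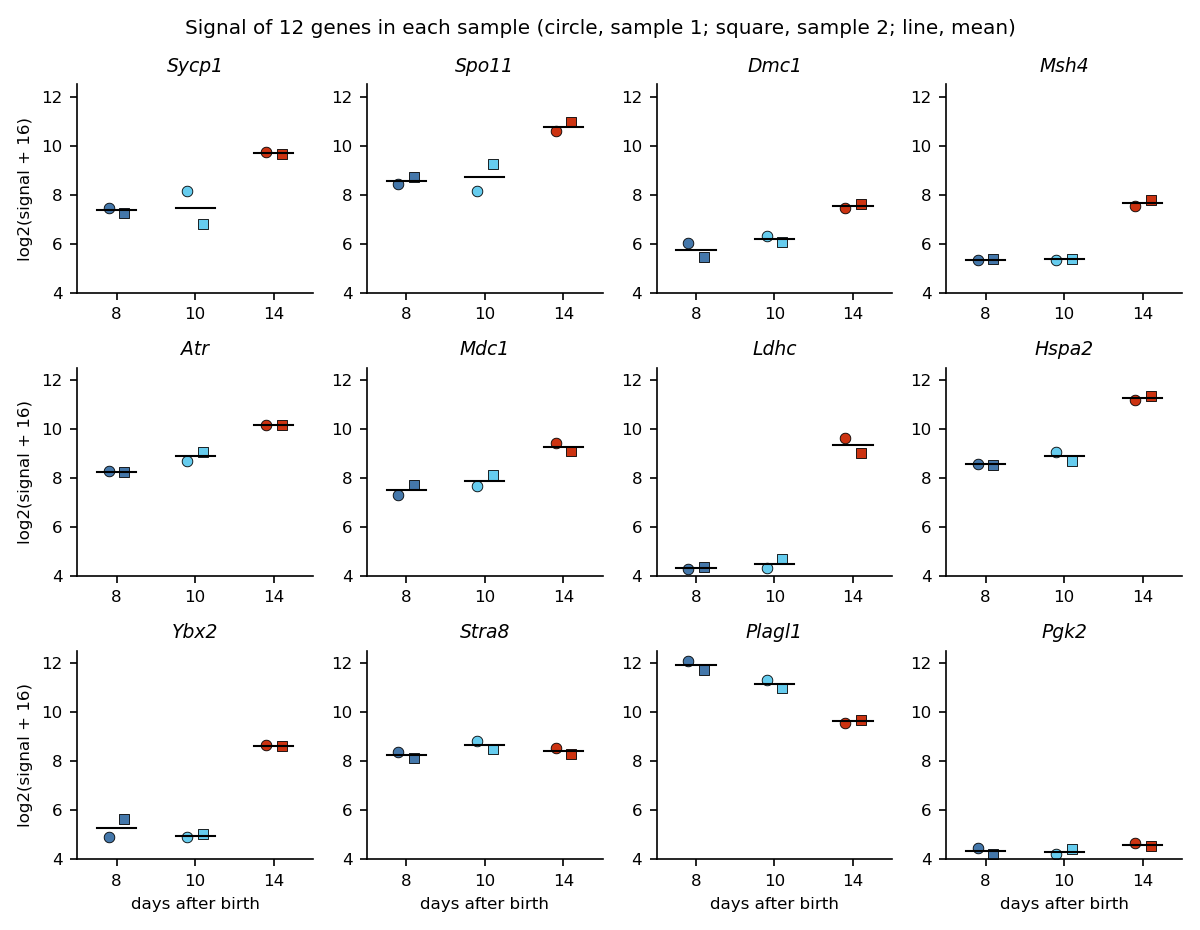
Each panel plots log2(signal + 16) of 1 gene in the 6 samples of days 8, 10 and 14 (circle, sample 1; square, sample 2; line, mean of the day). The day 14 samples of Sycp1, Spo11, Dmc1, Msh4, Atr, Mdc1, Ldhc, Hspa2 and Ybx2 lie above all earlier samples, those of Plagl1 lie below, and those of Stra8 lie within the earlier range. Pgk2 stays at signals under 10 at all 3 ages.

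The kinase and adaptor that coat unsynapsed chromosomes rose. Among 12 measured genes of meiotic sex chromosome silencing, 2 (16.7%) were called higher and 0 lower (median 0.23), against 1.3% of all genes called higher. Changes were above 0 in 12 of the 12, against 6321 of all 13472 genes tested. Atr, the kinase that phosphorylates the histone variant H2AX on the X and Y, gave 293 and 289 at day 8, 403 and 517 at day 10, and 1129 and 1126 at day 14. It rose by 1.59 ± 0.29 (adjusted p = 0.00521), and lost its call on leaving out sample 1 (adjusted p = 0.0801) or 2 (0.0954) of day 14, and against day 10 alone (0.116). A dimmer probe set of Atr changed by 0.15. Mdc1, which spreads that mark over the chromosome, gave 144 and 196, 189 and 260, and 663 and 526. Its groups were well apart, and it rose by 1.54 ± 0.20 (adjusted p = 0.000176) in all 6 leave-one-out fits as well. H2ax itself stood at 459 to 556 at days 8 and 10 and at 860 and 978 at day 14. Its change of 0.84 ± 0.15 passed the adjusted p (0.00487) but not the 2-fold limit. Brca1 and Topbp1, which recruit ATR, changed by 0.18 and 0.58 and were not called.

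Of 413 X-linked genes tested, 5 (1.21%) were called higher and 3 (0.726%) lower at day 14, against 1.31% and 0.277% of 13000 autosomal genes. The median change was -0.12, against -0.02 over autosomal genes. Changes were above 0 in 145 of the 413, and 24 lay above and 87 below all earlier samples. Of the 13000 autosomal genes, 6147 had changes above 0, and 1611 lay above and 1722 below. In the next step, from day 14 to day 18, the median was -0.53 over the X-linked genes and -0.08 over the autosomal ones, and 16 of 413 X-linked genes were called lower and 1 higher, against 107 and 571 of 13000 autosomal genes. The X-linked genes called higher at day 14 were Tsx (2.26), Gm9112 (1.93), Fmr1nb (1.51), 1700018G05Rik (1.32) and 1810030O07Rik (1.26), and those called lower were Agtr2 (-1.31), Gpc3 (-1.24) and Itm2a (-1.19). Tsx, a testis-expressed gene, gave 44.0 and 27.9 at day 8, 137 and 69.4 at day 10, and 429 and 285 at day 14 (2.26 ± 0.27, adjusted p = 9.57e-05), and it was the one of these genes called in all 6 leave-one-out fits. Without day 14 sample 2, adjusted p was 0.0505 for Fmr1nb, 0.114 for Gm9112, 0.249 for 1700018G05Rik, 0.31 for 1810030O07Rik, 0.258 for Agtr2, 0.472 for Gpc3 and 0.172 for Itm2a. Without day 14 sample 1 it was 0.193 for 1700018G05Rik, 0.0943 for 1810030O07Rik, 0.371 for Agtr2 and 0.148 for Itm2a. In whole testes, fewer cells of a type and less RNA per cell cannot be told apart.

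Promoters of called meiotic genes are shown because A-MYB and STRA8, the regulators of this stage, have known DNA motifs. The 6 genes with the largest rises among the called members of the meiotic lists above that have a window in the RefSeq promoter table are printed, from 250 bases before to 50 bases after the start of the gene, 5′ to 3′ on the strand of the gene (GRCm38.p6). Capitals mark CAACNG or TAACNG, the MYB core, and CNCCTCAG, a motif bound by STRA8, searched on both strands, so that some capitals read as the reverse complement.
Msh4: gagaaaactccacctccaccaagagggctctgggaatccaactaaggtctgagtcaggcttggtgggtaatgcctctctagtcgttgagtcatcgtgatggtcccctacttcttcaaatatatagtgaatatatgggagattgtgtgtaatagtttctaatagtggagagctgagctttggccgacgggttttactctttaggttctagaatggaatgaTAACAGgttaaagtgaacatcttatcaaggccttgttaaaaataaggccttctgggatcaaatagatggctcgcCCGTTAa
Sycp1: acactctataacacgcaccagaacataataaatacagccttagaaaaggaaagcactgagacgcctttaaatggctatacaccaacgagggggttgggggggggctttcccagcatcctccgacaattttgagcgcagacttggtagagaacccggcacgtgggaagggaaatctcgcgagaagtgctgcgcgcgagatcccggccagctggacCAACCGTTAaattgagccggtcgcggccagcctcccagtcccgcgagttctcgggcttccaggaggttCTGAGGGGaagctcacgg
Tex101: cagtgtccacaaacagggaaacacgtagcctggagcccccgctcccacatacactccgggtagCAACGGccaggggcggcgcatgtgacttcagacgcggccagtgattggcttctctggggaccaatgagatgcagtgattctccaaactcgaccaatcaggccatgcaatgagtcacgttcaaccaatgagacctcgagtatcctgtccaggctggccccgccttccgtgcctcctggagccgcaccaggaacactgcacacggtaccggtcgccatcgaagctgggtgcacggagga
Meioc: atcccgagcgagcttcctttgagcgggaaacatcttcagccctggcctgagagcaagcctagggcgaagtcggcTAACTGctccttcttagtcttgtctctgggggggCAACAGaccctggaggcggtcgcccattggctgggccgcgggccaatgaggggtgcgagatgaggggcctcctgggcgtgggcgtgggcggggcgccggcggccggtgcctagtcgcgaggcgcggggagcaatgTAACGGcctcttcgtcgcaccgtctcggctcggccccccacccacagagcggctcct
Atr: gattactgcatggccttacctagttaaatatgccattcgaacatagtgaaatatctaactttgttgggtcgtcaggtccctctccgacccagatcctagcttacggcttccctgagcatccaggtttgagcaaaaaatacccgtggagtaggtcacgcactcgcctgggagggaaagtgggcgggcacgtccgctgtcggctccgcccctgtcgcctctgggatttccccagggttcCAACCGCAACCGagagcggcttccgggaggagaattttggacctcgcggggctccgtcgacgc
Dmc1: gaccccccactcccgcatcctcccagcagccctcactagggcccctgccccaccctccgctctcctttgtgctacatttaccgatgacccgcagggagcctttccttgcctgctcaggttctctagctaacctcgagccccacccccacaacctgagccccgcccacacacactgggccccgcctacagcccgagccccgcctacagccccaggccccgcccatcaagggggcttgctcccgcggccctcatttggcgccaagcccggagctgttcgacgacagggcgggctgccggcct
These windows lie at chr3:153904842-153905141 (minus strand) for Msh4, chr3:102936051-102936350 (minus) for Sycp1, chr7:24672001-24672300 (minus) for Tex101, chr11:102665335-102665634 (plus) for Meioc, chr9:95857347-95857646 (plus) for Atr and chr15:79605060-79605359 (minus) for Dmc1. Meioc holds 3 MYB cores, Msh4, Sycp1 and Atr hold 2 each, Tex101 holds 1 and Dmc1 holds 0. In Sycp1 the MYB cores start at -36 and -33 on opposite strands and share 3 bases, and a STRA8 motif starts at 32, where 0 is the first base of the gene. In Atr the cores start at -13 and -7, side by side on the strand of the gene.

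Windows were found for 145 of the 175 genes called higher and 27 of the 39 called lower, some with more than 1 start. A MYB core on either strand was held by 67.4% of the 172 windows of genes called higher, 29.7% of the 37 windows of genes called lower, 46% of the 13718 windows of all genes tested and 49.7% of all 32851 windows of the table. The STRA8 motif was held by 12.8%, 10.8%, 9.1% and 7.94% of the same windows. The cyclic AMP response element TGACGTCA, known from genes of round spermatids, was held by 1.74%, 0%, 2.67% and 1.79%. A match describes the letters of the window and is not a measured binding site. Mybl1 itself gave 156 and 188 at day 8, 189 and 225 at day 10, and 283 and 394 at day 14, above all earlier samples, and its change of 0.78 ± 0.48 was not called (adjusted p = 0.693).

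The largest rises were genes of pachytene spermatocytes and of sperm metabolism. Of 34 measured genes of the pachytene list, 14 (41.2%) were called higher and 0 lower (median 0.72), against 1.3% of all genes called higher. Changes were above 0 in 28 of the 34, against 6321 of all 13472 genes tested. Ldhal6b, a lactate dehydrogenase of the testis, gave signals of 2.9 and 12 at day 8, 7.4 and 5.0 at day 10, and 722 and 1075 at day 14 (5.31 ± 0.65, adjusted p = 0.000106). Ldhc, the sperm lactate dehydrogenase, gave 3.2 and 4.8, 3.8 and 9.7, and 771 and 506 (4.92 ± 0.64, adjusted p = 0.000218). Both were near 0 in all 4 earlier samples and far higher at day 14. Gml, which encodes a membrane-anchored protein, gave 12.9 and 21.3 at day 8, 63.6 and 50.9 at day 10, and 1616 and 1494 at day 14, a rise of 5.0 ± 0.40 (adjusted p = 1.55e-06). Fabp9, which binds fatty acids in the sperm head, rose by 4.40 ± 0.53 (adjusted p = 9.57e-05), from 5.7 to 13 at days 8 and 10 to 688 and 424. Cers3, a ceramide synthase that makes very long chain sphingolipids, gave 38.7 and 43.8, 51.0 and 38.9, and 691 and 1653. Its day 14 samples differed from each other by more than 2-fold, yet both lay far above the rest (4.20 ± 0.37, adjusted p = 4.48e-06).

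Regulators and chaperones of the spermatocyte followed. Ybx2 (MSY2), which binds and stores germ cell mRNA, gave 14.1 and 33.7 at day 8, 13.6 and 16.4 at day 10, and 383 and 373 at day 14 (3.51 ± 0.41, adjusted p = 7.67e-05). Brdt, a bromodomain protein that reads acetylated histones in meiosis and in spermatids, gave 67.4 and 81.2, 89.8 and 92.1, and 778 and 721 (2.96 ± 0.43, adjusted p = 0.000647). The earlier samples of both genes lay close together. Hspa2, the heat shock protein that helps to take apart the synaptonemal complex, gave 365 and 354 at day 8, 525 and 392 at day 10, and 2317 and 2587 at day 14 (2.55 ± 0.25, adjusted p = 1.12e-05). Clgn (calmegin), a chaperone needed for sperm surface proteins, stood at 51.7 to 65.2 at days 8 and 10 and at 269 and 240 at day 14 (1.88 ± 0.28, adjusted p = 0.000751), but another, dimmer probe set of it changed by -0.33, and with its probe sets averaged it was not called (adjusted p = 0.323). Adam2, the fertilin subunit of the sperm surface, rose by 1.91 ± 0.19 (adjusted p = 1.8e-05), from 2.1 to 15.6 to 82.6 and 61.9. Other rises among the 12 largest were Cox8c, a testis subunit of cytochrome oxidase (4.07 ± 0.48), Pdcl2, a phosducin-like protein (4.0 ± 0.50), Rnf32 (3.65 ± 0.28), Fank1 (3.15 ± 0.38), Ly6k, a surface protein that partners TEX101 (3.10 ± 0.41), and Ropn1l, of the sperm tail (3.08 ± 0.26). Ly6k gave 511 and 185 at day 8, 1605 and 1329 at day 10, and 5881 and 5972 at day 14, so that its day 10 samples also lay above its day 8 samples. All 16 of these spermatocyte and sperm genes, from Ldhal6b to Ropn1l, were called in each of the 6 leave-one-out fits, and Ly6k was not called against day 10 alone (adjusted p = 0.0622). Calls of 2 other members of the pachytene list depended on single samples. Adam5, of the sperm surface (1.78 ± 0.44, adjusted p = 0.0472), lost its call in all 6 leave-one-out fits (0.0853 to 0.39), and Rfx2, a transcription factor of ciliary and spermatid genes (1.56 ± 0.39, adjusted p = 0.0456), in all but the one without day 8 sample 2 (0.0711 to 0.568). The brightest probe sets of Cox8c, Fabp9 and Ly6k carry a suffix that marks probes shared with other sequences, and other probe sets gave smaller changes. For Cox8c the other 3 changed by 1.34 (adjusted p = 0.0031, a bright probe set without a suffix), 1.24 (adjusted p = 0.00645) and -0.10 (not called). That of Fabp9, also without a suffix, changed by 3.04 (adjusted p = 0.000113), and that of Ly6k, a dim one, by -0.48 (not called). Dimmer probe sets of Rnf32 changed by 1.56 and 0.20 and were not called. Dimmer, suffixed probe sets of Adam5 changed by 2.28 (adjusted p = 0.000527, called higher) and 0.01 (not called).

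Some germ cell forms of housekeeping enzymes rose. Of 31 measured genes of the germ cell isozyme list, 9 (29%) were called higher and 0 lower (median 0.23), against 1.3% of all genes called higher. The list also holds general enzymes, among them Aldoa (-0.53), Tpi1 (-0.41), Glud1 (0.11) and Cs (0.21), none called. Its share and median are therefore not those of germ cell forms alone. Ldhal6b, Ldhc, Fabp9, Cox8c, Pdha2, Hspa2 and Cox6b2 among the 9 are members of the pachytene list too. Of 12 measured counterparts 0 were called (median -0.22), against 1.3% of all genes called higher and 0.289% lower. Over 18 measured pairs, 8 germ cell forms and 0 counterparts were called, and the difference within a pair was not tested. The germ cell forms that were not called include Pgk2 (0.28), Slc2a3, a glucose transporter (1.06), Vdac3, a mitochondrial channel (-0.13), and Rbmxl2, an RNA-binding protein (-1.36). A dimmer probe set of Slc2a3 was called higher at 1.52 (adjusted p = 0.0262), while others changed by 1.15 and -0.70 and were not called. Pdha2, the autosomal subunit of pyruvate dehydrogenase, gave 38.3 and 35.7 at day 8, 58.0 and 39.2 at day 10, and 392 and 325 at day 14 (2.68 ± 0.21, adjusted p = 1.38e-06), while its X-linked counterpart Pdha1 changed by -0.37 (adjusted p = 0.85). Cox6b2, a testis subunit of cytochrome oxidase, stood at 117 to 142 before and at 753 and 689 at day 14 (2.33 ± 0.21, adjusted p = 5.61e-06), against -0.10 for Cox6b1. One of the dimmer probe sets of Cox6b2 changed by -0.03 and another by 2.96. Cyct, the testis cytochrome c, rose by 1.76 (adjusted p = 0.0064) and lost its call on leaving out sample 1 (adjusted p = 0.132) or 2 (0.0669) of day 14, with Cycs at -0.13. Ldha changed by 0.30, Hspa8 by -0.31, Ybx1 by 0.20 and Canx by 0.11, none called, beside the rises of Ldhc, Hspa2, Ybx2 and Clgn. Of 9 measured autosomal retrogenes with X-linked parents, 3 (33.3%) were called higher, against 1.3% of all genes. They were Pdha2, Rpl10l, of the ribosome (1.53 ± 0.21, adjusted p = 0.000408), and Cetn1, a centrin (1.28 ± 0.25, adjusted p = 0.00885). Cetn1 lost its call on leaving out sample 1 (adjusted p = 0.167) or 2 (0.0769) of day 14. Of 6 measured X-linked parents 0 were called, with a median of -0.16, and a list of 6 would hold few calls at the share of all genes.

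**Figure D3:**
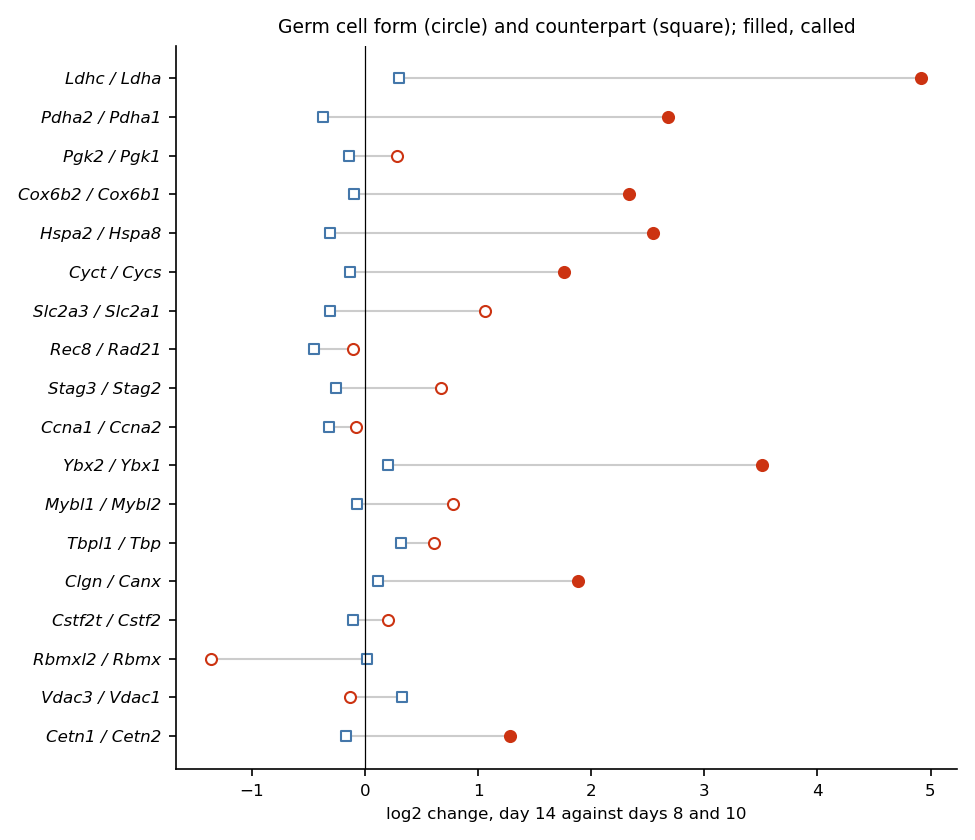
For 18 pairs, the log2 change at day 14 against days 8 and 10 is drawn for the germ cell form (circle) and its counterpart (square), and filled symbols were called. The 8 filled circles run from Cetn1 at 1.28 to Ldhc at 4.92, and 0 squares are filled.

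The germ granule and piRNA pathway silences transposons and later makes pachytene piRNAs. Its list had 2 of 16 measured genes called higher and 0 lower (median 0.60), against 1.3% of all genes called higher. Rnf17, of a spermatocyte germ granule, gave 39.4 and 65.8 at day 8, 31.4 and 111 at day 10, and 272 and 398 at day 14 (2.26 ± 0.56, adjusted p = 0.0492). Mael, needed for transposon control, gave 29.5 and 22.1, 22.8 and 43.7, and 73.6 and 159 (1.48 ± 0.33, adjusted p = 0.0253). Both lay near the threshold. Rnf17 was called without day 10 sample 2 only (adjusted p from 0.0809 to 0.5 in the other leave-one-out fits), and Mael was lost without day 8 sample 1 (0.0508), day 8 sample 2 (0.0789), day 10 sample 1 (0.0964) or day 14 sample 2 (0.584). Against day 10 alone adjusted p was 0.228 for Rnf17 and 0.159 for Mael. Mov10l1, the piRNA helicase, passed the adjusted p at 0.72 (adjusted p = 0.044), under 2-fold. Ddx4, the germ cell helicase, gave 450 and 365, 476 and 334, and 888 and 788, with no overlap (1.03 ± 0.26, adjusted p = 0.0518).

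Genes of the sperm tail were among those that rose. Of 37 measured axoneme genes, 8 (21.6%) were called higher and 0 lower (median 0.62), against 1.3% of all genes called higher. Both day 14 samples lay above all earlier ones in 24 of the 37, against 12.2% of all genes. Ropn1l, of the radial spoke and fibrous sheath, gave 18.4 and 21.4 at day 8, 8.8 and 14.2 at day 10, and 244 and 256 at day 14. Dnah8, a heavy chain of the outer dynein arm, gave 11.9 and 5.3, 3.9 and 9.7, and 123 and 122 (2.56 ± 0.20, adjusted p = 1.38e-06). In both genes the day 14 samples lay close together. Meig1, which acts in building the tail, rose from 1.3 to 3.1 at days 8 and 10 to 83.6 and 94.1 (2.51 ± 0.38, adjusted p = 0.00094), while a pseudocount of 64 or a floor of 32 gave an adjusted p of 0.0953 or 0.0822. Dnaic1, a dynein intermediate chain, rose by 2.27 ± 0.35 (adjusted p = 0.0011), and Rsph1, of the radial spoke, by 1.29 ± 0.18 (adjusted p = 0.000555). These 5 were called in all 6 leave-one-out fits. Spag6l (2.68), Cfap65 (2.23) and Iqcg (1.66) were also called, and without day 14 sample 2 their adjusted p was 0.282, 0.0771 and 0.406. Without day 14 sample 1 it was 0.0549, 0.187 and 0.255, and without day 8 sample 1 it was 0.0526 for Spag6l and 0.124 for Iqcg. Iqcg was not called without day 8 sample 2 (0.0797), day 10 sample 1 (0.0964) or day 10 sample 2 (0.111).

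In the list of late spermatocytes and meiotic division 2 of 21 (9.52%) were called higher and 0 lower (median 0.22), against 1.3% of all genes tested. They were Cetn1 and Fbxo43 (EMI2), an inhibitor of the anaphase promoting complex, which stood at 16 to 19.6 at days 8 and 10 and at 199 and 198 at day 14 (2.68 ± 0.50, adjusted p = 0.00651, and 0.0914 or 0.111 without day 14 sample 1 or sample 2). In the round spermatid list 4 of 26 (15.4%) were called higher and 0 lower (median 0.16), and 10 of 26 lay above all earlier samples, against 12.2% of all genes. In the elongating spermatid list 1 of 21 (4.76%) was called higher (median -0.01), which was Meig1. Dkkl1, of the acrosome, gave 12.6 and 18.3, 8.0 and 7.4, and 143 and 153 (2.59 ± 0.30, adjusted p = 5.43e-05), and Spa17, a sperm protein, rose by 1.99 ± 0.23 (adjusted p = 7.67e-05). Both were called without each sample in turn. Zpbp2 (1.43) and Tssk1 (1.04) were the other called members, and without day 14 sample 2 their adjusted p was 0.474 and 0.368. Zpbp2 was also lost without day 8 sample 2 (0.0806), day 10 sample 1 (0.0639) or day 10 sample 2 (0.0656), and Tssk1 without day 8 sample 2 (0.0849), day 10 sample 2 (0.0995) or day 14 sample 1 (0.145). Against day 10 alone adjusted p was 0.271 for Zpbp2, 0.0797 for Tssk1 and 0.0909 for Cetn1.

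Other genes of the same lists were not called at day 14. Pgk2, the sperm phosphoglycerate kinase, gave 5.6 and 2.6 at day 8, 2.5 and 5.1 at day 10, and 9.2 and 7.1 at day 14, and first passed 100 at day 18, at a mean of 122. Ccna1, the meiotic A-type cyclin, had signals of 3.0 to 14.9 at all 3 ages and a mean of 152 at day 18. Acrv1, of the acrosome, stayed between 1.1 and 6.2. Prm1, the protamine that packs sperm DNA, gave 4.3 and 98.6, 62.5 and 87.3, and 46.1 and 35.5, so that it varied among the samples of 1 age as much as between ages. Its mean was 6.65 at day 18 and 11561 at day 30. Tnp2, a transition protein, changed by -0.17 (adjusted p = 0.965).

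**Figure D4:**
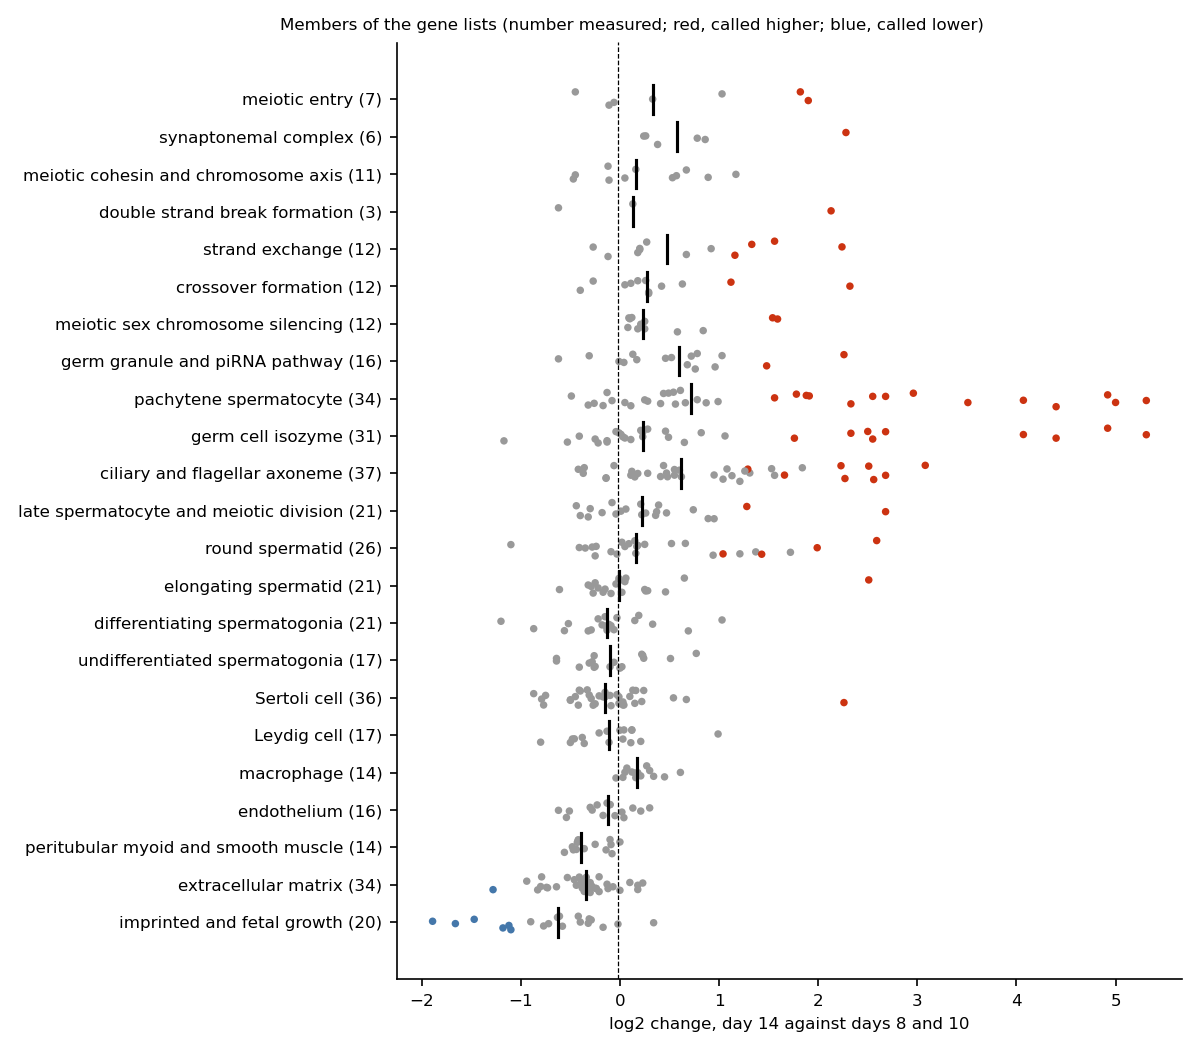
Each point is 1 measured member of a gene list, at its log2 change at day 14 against days 8 and 10, with black bars at the median of the list and a dashed line at the median of all genes tested, -0.02. Called members are red (higher) or blue (lower), with 14 of 34 in the pachytene list, 9 of 31 in the isozyme list, which shares genes with it, 8 of 37 in the axoneme list, 4 of 12 in strand exchange and 6 of 20, all lower, in the imprinted list. Over all genes tested, 1.3% were called higher and 0.289% lower.

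Few markers of spermatogonia and of somatic cells passed the test. Over all genes tested 1.3% were called higher and 0.289% lower, so lists of this size would hold few calls at that share. Of 17 genes of undifferentiated spermatogonia 0 were called (median -0.10), and of 21 genes of differentiating spermatogonia 0 were called (median -0.13). Gfra1, the GDNF receptor of stem cells, gave 92.4 and 82.7 at day 8, 50.5 and 45.2 at day 10, and 51.3 and 52.1 at day 14. Kit, the receptor of differentiating spermatogonia, gave 175 and 220, 188 and 178, and 140 and 204, and Zbtb16 (PLZF) ranged from 350 to 576 at days 8 and 10 and was 624 and 222 at day 14. The groups of all 3 genes overlapped. Dmrt1, which holds spermatogonia out of meiosis and is also made in Sertoli cells, stood at 701 to 919 at days 8 and 10 and at 415 and 462 at day 14. Its change of -0.87 ± 0.20 passed the adjusted p (0.0312) but not the 2-fold limit.

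Of 36 Sertoli cell genes 1 (2.78%) was called higher, the X-linked Tsx, and 0 lower (median -0.15), against 1.3% of all genes called higher. Amh was at 15.1 to 45.8 at all 3 ages, and Sox9, the factor that defines the cell, at 581 to 710. The Leydig cell list had 0 of 17 called (median -0.11), with the steroidogenic enzyme Cyp17a1 at 186 to 309 at days 8 and 10 and 199 and 163 at day 14, and Insl3 at 34.1 to 53.9 throughout. In the macrophage list 0 of 14 were called (median 0.17) and Csf1r ranged from 64.1 to 81.7. In the endothelial list 0 of 16 were called (median -0.12). In the peritubular myoid list 0 of 14 were called, and 0 of 14 changes were above 0 (median -0.39), against 6321 of all 13472 genes tested. Acta2, smooth muscle actin, gave 1722 and 1709, 1390 and 1130, and 1134 and 1017. The mitotic cell cycle (28 genes, median 0.04) and DNA replication (29 genes, median -0.17) lists also had 0 called. With 1.3% of all genes called higher and 0.289% lower, 0 calls in lists of these sizes do not set them apart from all genes.

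Among the falls were imprinted and fetal growth genes. Of 20 measured members of that list, 6 (30%) were called lower and 0 higher (median -0.62), against 0.289% of all genes called lower. Against day 10 alone 2 of the 20 were called lower, beside 0.0445% of all genes. There adjusted p was 0.28 for Dlk1, 0.607 for Igf2, 0.155 for Nnat and 0.326 for Cdkn1c. Plagl1 (ZAC1), an imprinted transcription factor that regulates other imprinted genes, gave 4326 and 3384 at day 8, 2504 and 2003 at day 10, and 741 and 813 at day 14. It was lower at each successive age, and the change of -1.89 ± 0.21 (adjusted p = 3.91e-05) was called in all 6 leave-one-out fits. Its probe set carries a suffix that marks shared probes, and dimmer probe sets of Plagl1 fell less. These changed by -1.23 (adjusted p = 0.0438, called), -1.37 (0.1, not called) and -0.69 (0.686, not called). Dlk1, a membrane-bound inhibitor of differentiation, gave 1027 and 2098, 575 and 1243, and 324 and 473 (-1.47 ± 0.30, adjusted p = 0.0113), and Igf2, the fetal growth factor, 1335 and 1765, 828 and 1088, and 476 and 629 (-1.12 ± 0.27, adjusted p = 0.0436). The 2 samples of Dlk1 differed from each other about as much at day 8 and at day 10 as the days did. Nnat (-1.66, adjusted p = 0.0117), Mest (-1.18, adjusted p = 0.00226) and Cdkn1c (-1.10, adjusted p = 0.0475), a cell cycle inhibitor, were also called. Without day 14 sample 1, adjusted p was 0.277 for Dlk1, 0.509 for Igf2, 0.229 for Nnat, 0.0611 for Mest and 0.277 for Cdkn1c. Igf2 was not called in any leave-one-out fit (0.0644 to 0.509), Nnat was also lost without day 8 sample 2 (0.0518), day 10 sample 2 (0.0509) or day 14 sample 2 (0.0779), and Cdkn1c without day 8 sample 2 (0.175), day 10 sample 1 (0.0542), day 10 sample 2 (0.176) or day 14 sample 2 (0.426).

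Of the other falls, Socs2, an inhibitor of growth hormone signalling, gave 366 and 335 at day 8, 197 and 213 at day 10, and 80.8 and 81.0 at day 14 (-1.55 ± 0.20, adjusted p = 0.000254). Sel1l3 stood at 230 to 423 before and at 108 and 91.9 at day 14 (-1.61 ± 0.24, adjusted p = 0.000751). Both were called in all 6 leave-one-out fits. Olfml3, a secreted matrix protein, showed the largest fall, from 191 to 292 to 38.7 and 17.5 (-2.48 ± 0.45, adjusted p = 0.00521), and lost its call on leaving out sample 2 of day 14 (adjusted p = 0.175). Of 34 extracellular matrix genes 1 (2.94%) was called lower and 0 higher (median -0.34), against 0.289% of all genes called lower. Both day 14 samples lay below all earlier ones in 13 of the 34, a larger share than the 13.5% of all genes. The called one, Postn (periostin), gave 370 and 442, 170 and 183, and 84.7 and 120 (-1.28 ± 0.20, adjusted p = 0.00122), and lost its call on leaving out sample 1 of day 14 (adjusted p = 0.0709).

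The step to day 14 was set against the step before it, from days 3 and 6 to days 8 and 10, and the step after it, to day 18. The comparisons share the arrays of days 8, 10 and 14. The difference, step to day 14 minus step before, was called above 0 in 47 genes (0.349%) and below 0 in 10 (0.0742%). For Ldhc the difference of the steps was 6.06 (adjusted p = 0.00578), for Gml 4.60 (0.0011), for Cers3 4.54 (0.000589), for Hspa2 2.23 (0.00855) and for Mdc1 1.55 (0.0242). It was below 0 for Dmrt1 (-2.01, adjusted p = 0.00427) and for Stra8 (-2.01, adjusted p = 0.0131), whose mean signals were 138.7 and 292.8 at days 6 and 8. Without the 6 arrays of days 3 and 6 with late transcripts, a setting chosen after seeing the data, 42 genes were higher and 4 lower. In that setting the differences were 4.67 for Ldhc (adjusted p = 2.9e-05), 1.98 for Hspa2 (0.0431), -1.94 for Dmrt1, still called, and -1.81 for Stra8, no longer called (0.0709).

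The step to day 18 minus the step to day 14 was called above 0 in 17 genes (0.126%) and below 0 in 4 (0.0297%). The 4 were Gml (-4.68 ± 0.77, adjusted p = 0.0152), Car7, a cytosolic carbonic anhydrase (-3.74 ± 0.65, adjusted p = 0.0245), the X-linked Fmr1nb (-2.52 ± 0.46, adjusted p = 0.0357) and the histocompatibility gene H2-D1 (-1.86 ± 0.35, adjusted p = 0.0414). Car7 gave 27.6 and 25.8 at day 8, 23.9 and 63.5 at day 10, and 346 and 415 at day 14 (3.01 ± 0.34, adjusted p = 5.43e-05). Its mean was 230 at day 18 and 13.8 at day 56, so the signal of day 14 was not kept in the adult testis. Fmr1nb gave 121 and 92.7, 214 and 171, and 423 and 448, and its mean was 225 at day 18.

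Over the whole course, 18 of the 175 genes called higher had their highest mean at day 14, 38 at day 18, 40 at day 20, 12 at day 30, 15 at day 35 and 52 at day 56. Sycp1 had means of 71.5 at day 6, 148 at day 8, 181 at day 10, 815 at day 14, 770 at day 18 and 333 at day 20. Msh4 was likewise highest at day 14, with 188, against 24.9 at day 10 and 174 at day 18. Hspa2 went on to 7072 at day 18 and 9284 at day 20, and Ldhc to 5203 and 6669. Of the 39 genes called lower, 17 had their highest mean at day 0 and 12 at day 3. Plagl1 went from 10532 at day 0 to 777 at day 14 and 388 at day 18.

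**Figure D5:**
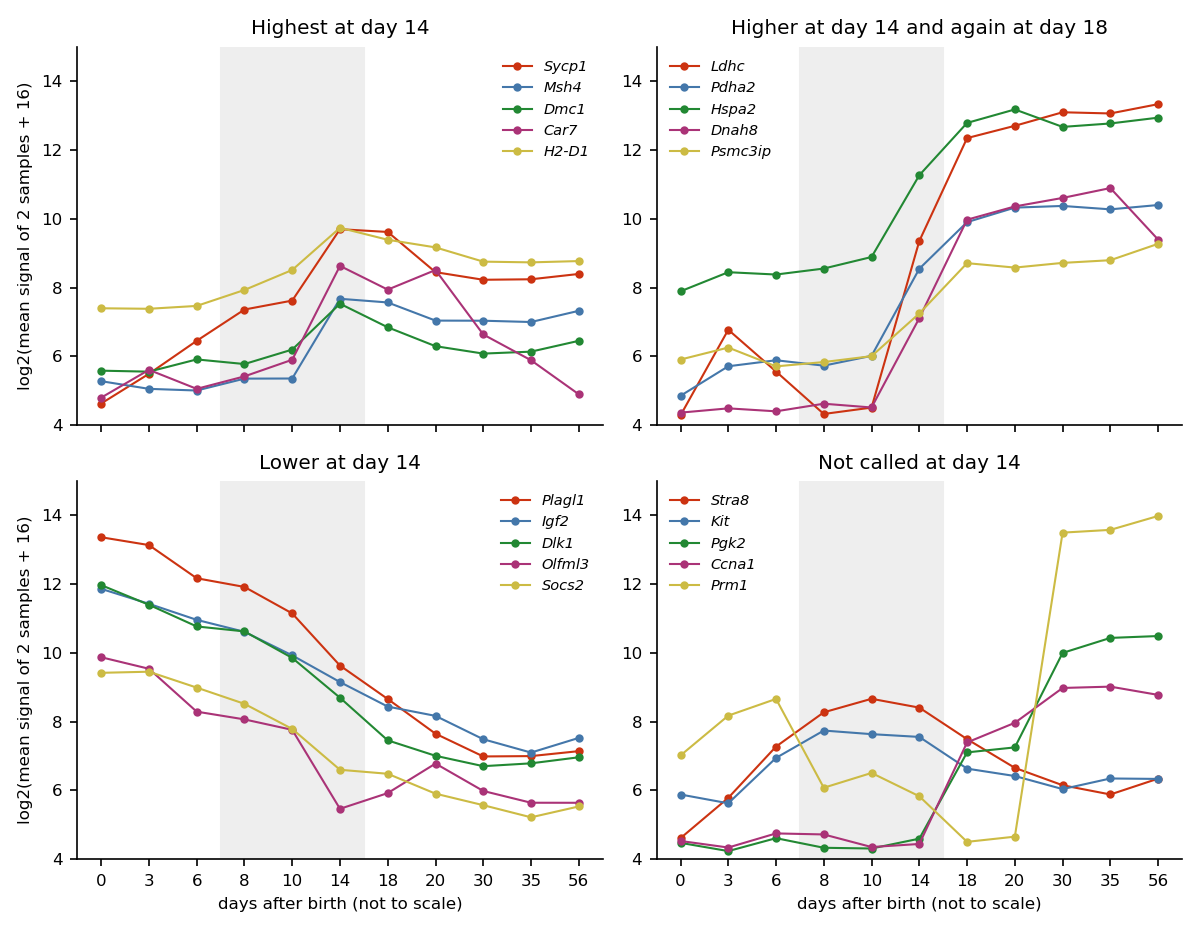
Lines join the mean log2 signal of 2 samples of each of 11 ages (x axis, days after birth, not to scale) for 5 genes per panel, with days 8 to 14 shaded. Sycp1, Msh4, Dmc1, Car7 and H2-D1 are highest at day 14, Ldhc and Hspa2 go on rising to day 18, Plagl1 falls from birth on, and Pgk2 and Ccna1 stay low up to day 14.

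Days 18 and 20 against days 3 and 6 share no array with the day means compared at day 14. Both comparisons came from the same fit of each type, so they share its estimate of the spread and the probe set of each gene. In days 18 and 20 against days 3 and 6, 1442 genes (10.7%) were called higher and 1496 (11.1%) lower. Of the 175 genes called higher at day 14, 169 (96.6%, and 11.7% of the 1442) were called higher there too, and of the 39 called lower, 33 (84.6%, and 2.21% of the 1496) were called lower. In the opposite direction 0 were called. Without the 6 arrays with late transcripts, 171 of the 175 (97.7%) and 33 of the 39 (84.6%) were shared. Because the spread is shared, a gene with a small spread is favoured in both comparisons, and the overlap is not independent support for the calls.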

How the data were processed

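The authors deposited 1 signal intensity per probe set and array, scaled to a mean of 125 per the labels. On the 66 arrays the mean without the extreme 2% at each end was 125.0 to 125.1. The software behind the signals is not given in the sources used here. Of 36899 probe sets, 29131 carry 1 gene in the platform annotation and 29044 of those matched a RefSeq gene (GRCm38.p6) by gene ID, while 724 with several genes, 6846 with none and 198 controls were left out. Detection calls were not used here, so precision rests on the number of arrays.

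Log2(signal + 16) was analysed for probe sets that reached 50 on 2 or more of the 22 arrays of a type, with the brightest probe set standing for a gene. Each type was fitted in limma 3.58.1 (R 4.3.3) by lmFit on 11 day means, then eBayes with trend (11 residual degrees of freedom). Two-sided p-values were adjusted over 13472 genes. SEs come from this fit. The fit was tested on simulated data. Figures used Python 3.11.15 and matplotlib 3.10.9.

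Members, lists and tests were chosen with earlier results of these data known. Named genes were the 12 largest rises and falls among called genes without overlap and clone names, up to 5 called members per list, all members of the synapsis, axis, break, exchange, crossover and silencing lists, all pairs, and textbook anchors, of which Piwil1 was not measured. They are described where they carry a result. There were 33 measured lists. No other gene is named except where said. Sample numbers were not taken to pair days. Alternatives changed the pseudocount, filter, scaling, probe set rule, arrays in the fit, variance trend, block, fold limit and earlier age, and left out samples.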

Additional observations from a re-analysis of the deposited data

How the results depend on the processing

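The counts of 175 genes called higher and 39 lower at day 14 stayed within 1.5 times under most alternatives (124 to 226 higher and 27 to 47 lower with the pseudocount, floor, filter, scaling, probe set, trend and array choices), apart from those given here. With day 10 alone as the earlier age 89 were called higher and 6 lower, and with a pseudocount of 64 there were 19 lower. Leaving out 1 sample of days 8, 10 or 14 on all 3 types gave 72 to 137 higher and 14 to 30 lower. In settings chosen after seeing the data, with the numbers of type A exchanged, the same leave-one-out fits gave 69 to 141 higher and 13 to 31 lower. Without days 3 and 6, 184 were called higher and 31 lower, and without the 6 arrays of days 3 and 6 with late transcripts 183 and 31. In the latter setting the step to day 14 minus the step before was called below 0 in 4 genes in place of 10. With a pseudocount of 64, days 18 and 20 against days 3 and 6 had 810 genes called lower in place of 1496. The cause was not tested. With the sample number as a replicate block, 183 were called higher and 43 lower, and all 214 genes called without it were called. Same-numbered samples of days 8, 10 and 14 deviated together (correlations of 0.118 to 0.377), but 2 numbers a day do not settle a pairing. Of 148 named genes, 1 changed sign: Arhgef4, called lower at -1.82, stood at 0.05 (adjusted p = 0.995) with suffixed probe sets left out, which left another probe set to represent it. Over the 80 called genes with another kept probe set, 89 of 116 other probe sets had the same sign, 22 were called the same way and 0 the opposite way. With 2 samples at day 14, 67 of the 214 called genes kept their call without each sample in turn, and signals under 50 have no detection call here.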

Other observations

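Genes outside the lists also rose at day 14, and those named here were chosen after their values were seen. Histocompatibility genes of class I were among them. H2-D1 gave 210 and 246 at day 8, 338 and 360 at day 10, and 754 and 923 at day 14 (1.51 ± 0.18, adjusted p = 9.69e-05 in limma), and was called without each sample in turn. H2-K1 gave 342 and 423, 615 and 661, and 1083 and 1295 (1.24 ± 0.18, adjusted p = 0.000529). Both day 10 samples lay above both day 8 samples in each gene. H2-K2 (2.55 ± 0.44, adjusted p = 0.00309, and 0.0796 without day 14 sample 1) and H2-Q4 (1.13 ± 0.28, adjusted p = 0.0453) were also called, the latter in none of the 6 leave-one-out fits (0.104 to 0.608). These genes are near-identical to each other, so their probe sets cannot be assigned to 1 gene with certainty, and H2-K1 was not called with suffixed probe sets left out (adjusted p = 0.976). The macrophage list had 0 of 14 genes called (median 0.17), against 1.3% of all genes called higher, and the part of other cells in these rises was not tested.

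Single genes of various roles, also picked by their values, rose as well. Phf7, a reader of histone marks, gave 144 and 138 at day 8, 166 and 165 at day 10, and 908 and 670 at day 14 (2.24 ± 0.23, adjusted p = 2.22e-05). Tesmin, a germ cell DNA-binding protein, gave 534 and 354, 741 and 565, and 2160 and 2625 (2.13 ± 0.24, adjusted p = 4.88e-05). Pbx4, a homeobox factor, stood at 23.9 to 42.4 before and at 161 and 164 at day 14 (2.00 ± 0.31, adjusted p = 0.00127), and Eid3, of the SMC5/6 complex, at 14.5 to 45.6 and then at 207 and 275 (2.76 ± 0.38, adjusted p = 0.000371). Psma8, the subunit of the germ cell proteasome, gave 188 and 199, 197 and 225, and 494 and 883 (1.64 ± 0.23, adjusted p = 0.000453). These 5 genes were called in all 6 leave-one-out fits. Zmynd10, which assembles dynein arms, rose from 2.9 to 7.1 to 122 and 95.1 (2.54 ± 0.36, adjusted p = 0.00045), also in all 6. Fbp1, fructose bisphosphatase, rose from 4.7 to 10.8 to 192 and 126 (2.90 ± 0.32, adjusted p = 4.45e-05). A dimmer probe set of Phf7 was called higher at 1.24, while others changed by 0.94, 0.31 and 0.17 and were not called. One of Eid3 changed by 0.11 and was not called.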
